A study of Danio rerio with 24 samples.

Results

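The heat shock and J-domain proteins were followed here as transcripts in zebrafish liver. They are the genes whose names begin with those of the heat shock proteins, the dnaja, dnajb and dnajc families, the heat shock factors, the BAG proteins, stip1 or ahsa1. Of 98 such names among the 28210 genes of the count table, hspa5, hsp90b1 and dnajb11 were left out by name, which left 95. Of these, 69 had more than 100 counts in at least 3 fish and were tested among 11801 genes past the same filter, and 26 did not pass it. Beyond this filter the genes were chosen by name.

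Livers came from 24 zebrafish, all 2 months old and kept at 28 °C, with 6 fish in each of 4 genotypes. Z+ fish carried Tg(lfabp:eGFP-T2A-ZAAT), which places eGFP and the human Z-mutant α1-antitrypsin (ZAAT) under the liver promoter of fabp10a. A+ fish carried Tg(lfabp:eGFP-T2A-AAT), the same cassette with human wildtype antitrypsin (AAT). Z- and A- fish were the non-transgenic siblings of each line, and both lines were kept heterozygous by crossing to TU wildtype fish. In people, ZAAT misfolds and can form inclusion bodies in the endoplasmic reticulum (ER) of hepatocytes, which the study's text describes as absent from this zebrafish model.

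Heat shock proteins are molecular chaperones, which bind proteins that have not reached or have lost their fold. Hsp70 holds short unfolded stretches in a cycle driven by ATP, in which J-domain proteins deliver the client and start ATP hydrolysis, and BAG and Hsp110 proteins release the nucleotide so that the client can leave. Hsp90 matures signalling proteins passed on by Hsp70, small heat shock proteins hold clients without ATP, and the Hsp60 chaperonin folds proteins inside mitochondria. When misfolded proteins accumulate in the cytosol, Hsf1 is released from its chaperones and raises transcription of the inducible members, while other members are made constantly. The liver secretes large amounts of folded protein and relies on constitutive chaperones throughout.

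The transcript of the cassette reached 903 to 6894 CPM (counts divided by the scaled library size and multiplied by 1e6) in Z+ livers and 1555 to 4871 CPM in A+ livers, against at most 7.34 CPM in Z- livers and 6.06 CPM in A- livers. Between 33898825 and 44715713 reads were counted per fish, so that 3 counts, taken as the floor of detection, stood for 0.0492 to 0.149 CPM. Floors of this kind cover counting error only. The 69 tested members held 0.459 to 0.965% of all counts of a fish. The 8 hepatocyte markers fixed for the label were detected in every fish, and their summed level was 37740 to 189700 CPM. Some livers stood apart. A+ 2 had the lowest hepatocyte sum and a summed level of 2026 CPM over 6 ovary markers, with at most 137 CPM in any other fish. A- 6 had a sum of 117.7 CPM over 4 skeletal muscle markers, with at most 13.4 CPM elsewhere. It also had the highest sums over 5 intestine markers (5035 CPM, at most 3155 CPM elsewhere) and over 6 leukocyte markers (227 CPM, at most 216.9 CPM elsewhere). Z+ 5 and Z- 2 had sums over 7 vitellogenin genes of 792400 and 829900 CPM, with at most 52410 CPM elsewhere. The counts of called members are therefore also given without these 4 fish, in the 20 others, a choice made after seeing the data. Nothing beyond the fish number separates the samples of a genotype in the labels, and p-values measure the spread between these fish.

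The name "cytosolic" did not cover the whole set. By the known location of their human counterparts, 13 of the 69 tested members belong to the ER and 11 to mitochondria, and 45 belong to the cytosol or nucleus or were not assigned. By role they were 2 Hsf transcription factors, 8 Hsp70 and Hsp110 chaperones, 2 Hsp90 chaperones, 4 small heat shock proteins, 2 subunits of the mitochondrial chaperonin, 5 class A, 10 class B and 26 class C J-domain proteins, 7 BAG proteins and 3 other co-chaperones. The member just inside the filter was hsp70.3, with 508, 116 and 109 counts in its 3 highest fish. Just outside it were hsp70.1, with 243 and 169 counts in its 2 highest fish, and dnajc30b, with 2 fish over the limit. A further 8 members had 1 fish over it (hsp70.2, hsp70l, hsp90aa1.1, hspb9, hspb11, dnajc6, hsf2bp and hspbap1). Spread between fish of 1 genotype was close to that of other genes, with a median SD of 0.45 on the log2 scale for the 69 members and 0.47 for all tested genes. It was smallest for dnaja2l (0.17) and bag1 (0.17), and widest for the inducible genes hsp70.3 (1.44) and hsp90aa1.2 (1.18).

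Z+ livers were compared with A+ livers, which express antitrypsin from the same cassette without the Z mutation. They come from separate lines, so the mutation cannot be told apart here from the line, its family or its cassette level. In Z+ livers the transcripts of hsf2, bag3, hspb1 and dnajb14 were higher, and those of hsf1, stip1, hspa4a and dnajc5ga were lower, while the constitutive hspa8 and hsp90ab1 differed by 0.05 and 0.22 on the log2 scale. The 8 of 69 members that passed the threshold (adjusted p under 0.05, edgeR quasi-likelihood test with Benjamini-Hochberg adjustment over all tested genes) were 11.6% of them, and 11.8% of all tested genes passed it, 5.91% higher and 5.92% lower. The share of members was therefore that of the background. The median log2 fold change of the 69 was -0.14, beside -0.02 for all tested genes, with 43 members below zero and 26 above.

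**Figure D1:**
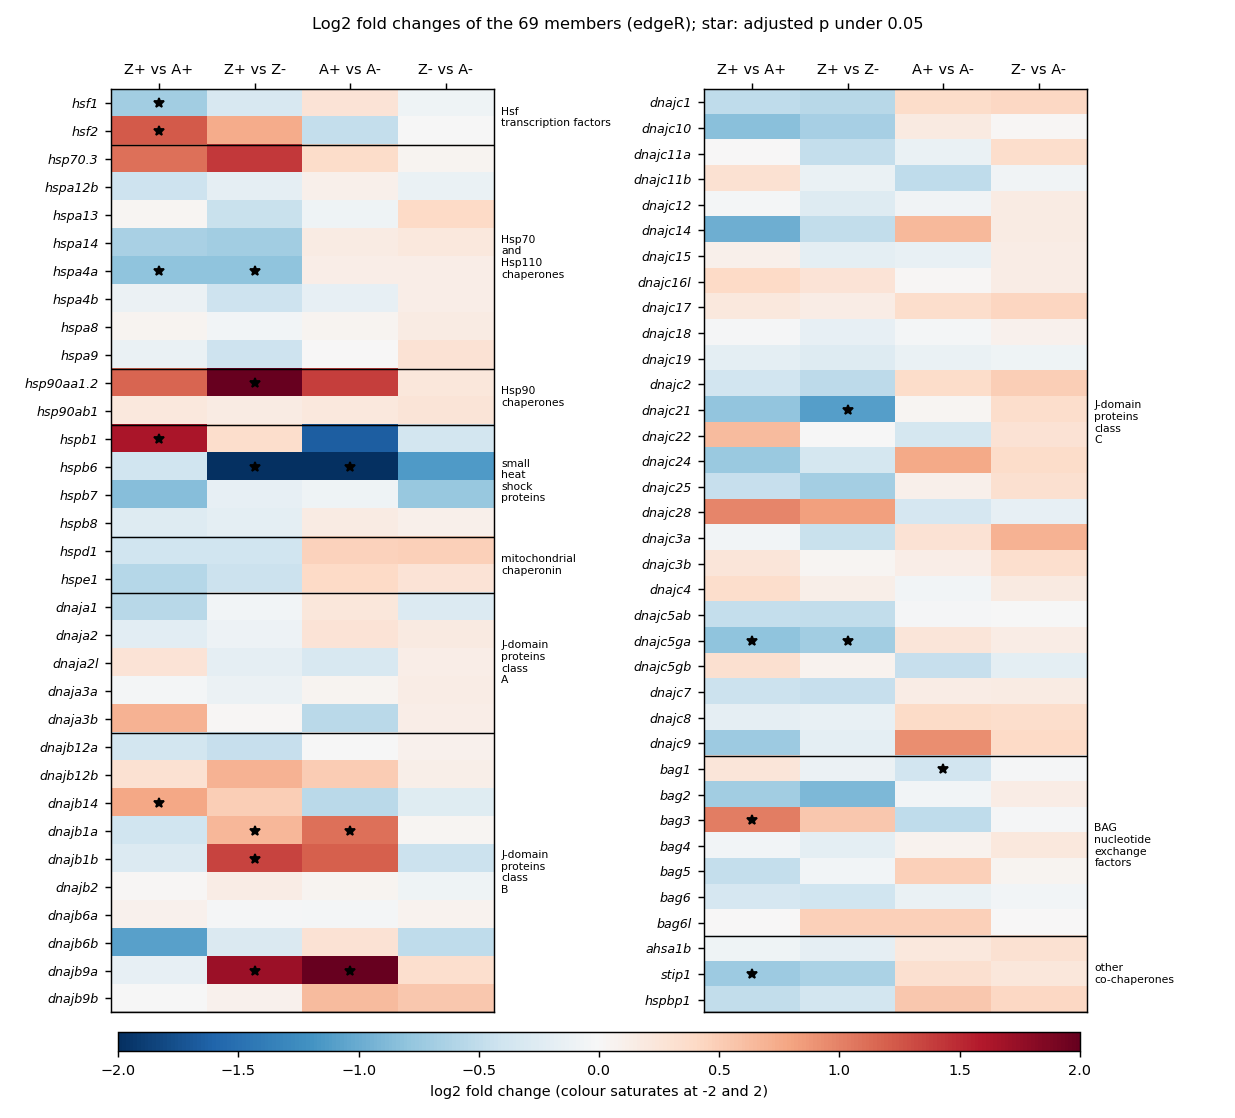
Log2 fold changes of the 69 tested members in 4 comparisons (columns), ordered by role (rows). Red is higher in the first-named genotype, blue is lower, colour saturates at -2 and 2, and stars mark an adjusted p under 0.05. Stars are scattered over the roles, with 8 in Z+ against A+, 8 in Z+ against Z-, 4 in A+ against A- and 0 in Z- against A-.

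The 2 heat shock factors differed in opposite directions. Hsf2 is a relative of Hsf1 that can join it in mixed trimers and has roles in development. Its transcript was at 11.8, 24.1 and 32.9 CPM in Z+ livers (lowest, median and highest of 6) and at 4.84, 7.66 and 25.5 CPM in A+ livers. Every A+ fish but A+ 2 was below every Z+ fish. On the log2 scale the difference was 1.22 ± 0.34 (SE, n = 6 each, edgeR adjusted p = 0.0245). Hsf1, the main activator of the heat shock response, was at 2.93, 3.93 and 5.83 CPM in Z+ livers, against 5.11, 6.45 and 10.2 CPM in A+ livers. The ranges overlapped, and the log2 fold change was -0.69 ± 0.19 (edgeR adjusted p = 0.0268). Sibling medians lay between those of Z+ and A+ livers, at 14.8 (Z-) and 14.0 CPM (A-) for hsf2 and 5.49 and 5.45 CPM for hsf1. With 24 fish neither factor was called within a line. Without the 4 fish hsf2 was higher in Z+ against Z- (0.75, edgeR adjusted p = 0.0189) and lower in A+ against A- (-0.98, edgeR adjusted p = 0.0111).

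Among the chaperones of the Hsp70 and Hsp110 class, 1 of 8 fell, 12.5% beside 11.8% of all tested genes (5.92% lower). Without the 4 fish 3 of 8 fell (hspa4a, hspa9 and hspa14), 37.5% beside 22.2% (9.56% lower). The 1 called with 24 fish was hspa4a, an Hsp110-type nucleotide exchange factor. It was at 35.9, 75 and 137 CPM in Z+ livers and 97.6, 134 and 204 CPM in A+ livers. There, 4 of 6 Z+ fish were below every A+ fish, and Z+ 5, the fish with high vitellogenin, had the highest Z+ value. The log2 fold change was -0.80 ± 0.26 (edgeR adjusted p = 0.0464), and hspa4a was called in 8 of 24 fits with 1 fish left out. Its paralogue hspa4b was at -0.11 and did not pass the test. The constitutive Hsp70 hspa8, which had the highest level of its class, was at 1294, 1897 and 2216 CPM in Z+ livers and 1088, 1758 and 2509 CPM in A+ livers. These ranges overlapped throughout, with a log2 fold change of 0.05 ± 0.20 (edgeR adjusted p = 0.90) whose sign turned under library totals alone, with the vitellogenin covariate and without the 4 fish.

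Of the 4 small heat shock proteins tested, hspb1 rose, 25% beside 11.8% of all tested genes. Without the 4 fish hspb7 also fell, 50% beside 22.2%. Hspb1 (Hsp27) is an inducible holdase that also binds actin. It was at 2.30, 3.27 and 8.90 CPM in Z+ livers, against 0.387, 1.52 and 2.44 CPM in A+ livers, so that only the highest A+ fish reached the lowest Z+ fish. The log2 fold change was 1.63 ± 0.54 (edgeR adjusted p = 0.0499), and in 19 of 24 fits with 1 fish left out it was not called. In Z- livers hspb1 was at 3.11, 3.37 and 3.46 CPM, and in A- livers at 0.617, 2.36 and 12.4 CPM, so that A+ livers had the lowest median of the 4 genotypes. The muscle-expressed hspb7 and the autophagy partner of Bag3, hspb8, did not pass the test with 24 fish, and hspb8, with the highest level of the class, was at 82.4 to 142 CPM in Z+ and 66.4 to 182 CPM in A+ livers.

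Among the co-chaperones, bag3 rose and stip1 fell. Bag3 releases nucleotide from Hsp70 and steers its clients to autophagy. Its transcript was at 27.7, 44.0 and 58.4 CPM in Z+ livers and 11.3, 19.8 and 37.4 CPM in A+ livers, with a log2 fold change of 1.02 ± 0.29 (edgeR adjusted p = 0.0302). Here, 4 of 6 Z+ fish were above every A+ fish. The bag3 median was 28.65 CPM in Z- livers and 26.56 CPM in A- livers, between those of Z+ and A+, and bag3 was not called within a line. Stip1 (Hop) bridges Hsp70 and Hsp90 during client transfer. It was at 22.5, 35.9 and 52.7 CPM in Z+ livers, against 37.8, 52.0 and 107 CPM in A+ livers, where the highest value was that of A+ 2. Its log2 fold change was -0.72 ± 0.23 (edgeR adjusted p = 0.0451). Stip1 was called in 11 of 24 fits with 1 fish left out, and not in the fit without A+ 2. Ahsa1b, which stimulates the ATPase of Hsp90, was at -0.09 and did not pass the test.

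**Figure D2:**
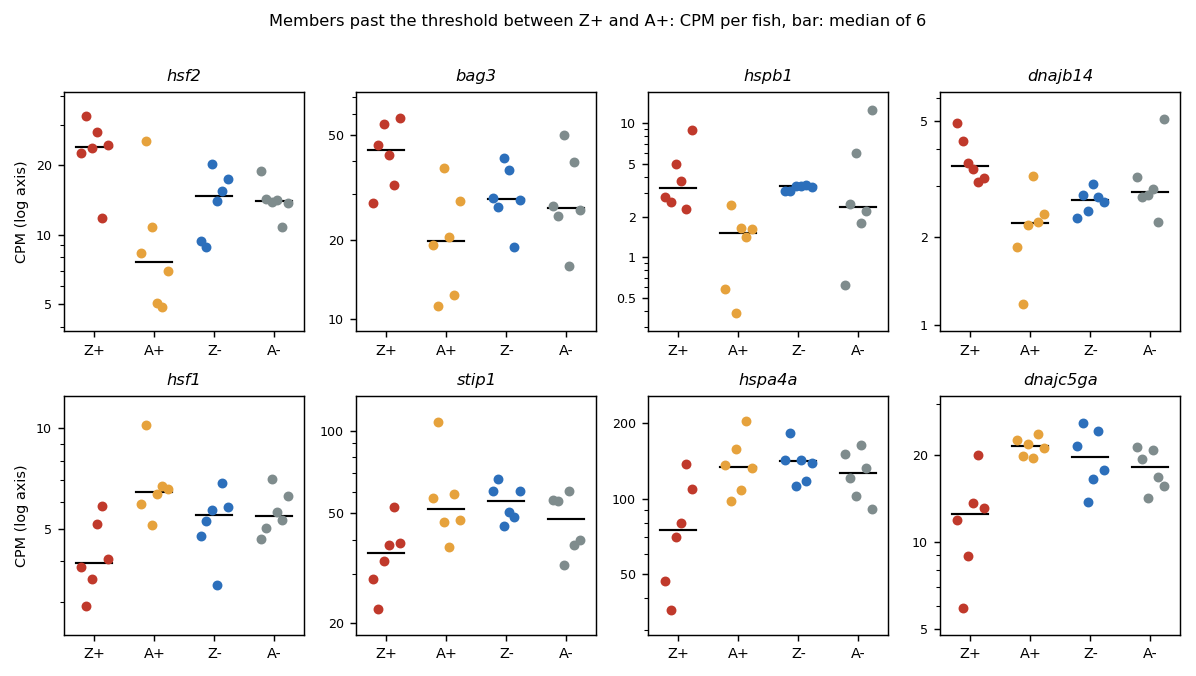
CPM per fish on a log axis for the 8 members past the threshold between Z+ and A+ livers, with a bar at the median of 6 fish of each genotype. For hsf2, bag3, hspb1 and dnajb14 the Z+ median is the higher of the pair, for hsf1, stip1, hspa4a and dnajc5ga it is the lower, and each gene has at least 1 fish that overlaps the other genotype.

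Of the J-domain proteins, 1 of 10 in class B rose, 1 of 26 in class C fell and none of 5 in class A was called (edgeR; 2 of the 5 had an unadjusted p under 0.05). With 24 fish 11.8% of all tested genes were called. With the 4 fish left out, 1 in class A rose, 3 in class B rose and 1 fell, and 2 in class C rose and 7 fell. Those were 20%, 40% and 34.6% of each class, beside 22.2% of all tested genes (12.6% higher and 9.56% lower). Dnajb14, which sits in the ER membrane with its J domain in the cytosol, was at 3.08, 3.5 and 4.91 CPM in Z+ livers and 1.18, 2.23 and 3.23 CPM in A+ livers. A single A+ fish overlapped the Z+ range (log2 fold change 0.78 ± 0.22, edgeR adjusted p = 0.0252). The dnajb14 median was 2.69 CPM in Z- livers and 2.85 CPM in A- livers, and with 24 fish dnajb14 was not called within a line. Without the 4 fish it was higher in Z+ against Z- (0.53, edgeR adjusted p = 0.0263). Dnajc5ga belongs to the cysteine string proteins, which in neurons guard vesicle release. It was at 5.92, 12.5 and 19.9 CPM in Z+ livers, against 19.5, 21.4 and 23.6 CPM in A+ livers, and only Z+ 5 reached the A+ range (log2 fold change -0.80 ± 0.21, edgeR adjusted p = 0.0195). It was called in 24 of 24 fits with 1 fish left out. Dnaja2, the class A protein with the highest level, was at 129 to 166 CPM in Z+ and 140 to 210 CPM in A+ livers and did not pass the test.

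The number of calls moved with how the spread was estimated and with single fish. With only Z+ and A+ fish in the model, 0 of the 69 members were called in either direction, beside 2.96% of all genes tested there (2.13% higher and 0.83% lower). When Z+ 2 was left out there were 0 higher and 1 lower, beside 4.77% of all genes tested (2.37% higher and 2.4% lower). With library totals in place of TMM scaling there were 0 higher and 7 lower, where the median of all tested genes stood at -0.21 and their calls at 174 higher and 735 lower (7.7% in all, 1.47% higher and 6.23% lower), beside 698 and 699 with TMM. Without the 4 fish that stood apart, 9 members were higher and 15 lower, 34.8% of the members beside 22.2% of all tested genes, and the 8 called in the full set were among them. Summed levels of markers of other tissues, compared without a test, overlapped between these genotypes but were not alike. The ovary sum was 0.5 to 47.9 CPM in Z+ livers and 2.11 to 2026 CPM in A+ livers, and the sum over 5 intestine markers was 620 to 3155 CPM in Z+ livers and 393 to 1691 CPM in A+ livers. Beyond leaving out the 4 fish, their part in the calls was not tested. In that smaller set, lower calls were 21.7% of members and 9.56% of all tested genes, and higher calls 13% and 12.6%. The mitochondrial hspe1 (-0.86, edgeR adjusted p = 0.00557) and hspa9 (-0.61, edgeR adjusted p = 0.00664) and dnajc21 (-1.23, edgeR adjusted p = 0.0111), all lower, and dnajb12b (1.1, edgeR adjusted p = 0.0108), higher, were among the calls that appeared, picked here after their values were seen.

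Z+ livers were next compared with Z- livers, their own siblings, and A+ livers with A- livers, to follow how transgenic fish differed from siblings within each line. These comparisons share no fish. Between Z+ and Z-, 4 members were higher (dnajb1a, dnajb1b, dnajb9a and hsp90aa1.2) and 4 lower (hspb6, hspa4a, dnajc5ga and dnajc21), which is 11.6% of the 69 beside 12.2% of all tested genes (7% higher and 5.17% lower). Between A+ and A-, 2 were higher (dnajb1a and dnajb9a) and 2 lower (hspb6 and bag1), 5.8% beside 10.1% of all tested genes (5.27% higher and 4.86% lower). Median log2 fold changes of the 69 were -0.18 in the Z line and 0.10 in the A line, beside 0.03 and 0.01 for all tested genes.

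The widest difference in the set was that of hspb6 (Hsp20), a small heat shock protein best known from heart and other muscle. It was at 0.316, 0.588 and 1.82 CPM in Z+ livers and 0.607, 0.882 and 1.74 CPM in A+ livers, against 2.99, 15.4 and 20.8 CPM in Z- livers and 4.30, 15.9 and 70.6 CPM in A- livers. All 12 transgenic fish were below all 12 siblings, a pattern shown by 24 of 11801 tested genes (0.203%). The log2 fold change was -4.04 ± 0.68 in Z+ against Z- (edgeR adjusted p = 6.7e-04) and -4.79 ± 0.70 in A+ against A- (edgeR adjusted p = 0.0014), and both were called in 24 of 24 fits with 1 fish left out. Hspb6 passed the filter only through the siblings, where it was high, with 11 sibling fish over 100 counts and at most 56 counts in a transgenic fish, and at its transgenic level in every group it would not have been tested. With no filter it was also called in both lines (edgeR adjusted p = 0.00137 and 0.00216). Between Z+ and A+ livers it was -0.39 (edgeR adjusted p = 0.73). In bulk liver, fewer cells of a type and less RNA per cell cannot be told apart. The skeletal muscle marker sum was 0.288 CPM in A- 3 and 0.261 CPM in A- 5, the 2 fish with the highest hspb6 (53.4 and 70.6 CPM), and 117.7 CPM in A- 6, where hspb6 was at 10.2 CPM. These fish were picked after their values were seen. Whether hspb6 followed muscle or any other cell type was not tested.

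Genes next to hspb6 in the RefSeq order of GRCz12tu were looked at after its values were seen, and only those among the tested genes are given. Psenen, a subunit of γ-secretase, was at -0.33 in Z+ against Z- (edgeR adjusted p = 0.14) and -0.48 in A+ against A- (edgeR adjusted p = 0.041). The histone methyltransferase gene kmt2bb was at -0.25 (edgeR adjusted p = 0.47) and -0.79 (edgeR adjusted p = 0.023) in the same comparisons, and lin37 was at -0.77 (edgeR adjusted p = 0.16) and 0.19 (edgeR adjusted p = 0.78). None of these 3 tested neighbours showed a difference of the size seen for hspb6. Whether the reads were counted by strand is not given in the sources used here.

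Dnajb1a and dnajb1b are the zebrafish counterparts of human DNAJB1 (Hsp40), the J-domain partner of Hsp70 that heat induces and that takes part in returning Hsf1 to its resting state. Dnajb1a was at 3.69, 4.84 and 5.87 CPM in Z+ livers and 4.85, 5.66 and 9.43 CPM in A+ livers, against 2.59, 2.85 and 3.65 CPM in Z- livers and 2.33, 3.05 and 3.39 CPM in A- livers. All 12 transgenic fish were above all 12 siblings, as was so for 11 of 11801 tested genes (0.0932%). Its log2 fold change was 0.67 ± 0.18 in the Z line (edgeR adjusted p = 0.0157) and 1.09 ± 0.18 in the A line (edgeR adjusted p = 0.0018), and the difference between the lines, -0.42 ± 0.25, did not pass the test (edgeR adjusted p = 0.32). The call in the Z line was lost with library totals alone and without a filter on low counts.

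Dnajb1b was at 5.14, 7.02 and 9.40 CPM in Z+ livers and 2.67, 5.19 and 29.6 CPM in A+ livers, against 1.79, 2.95 and 3.69 CPM in Z- livers and 2.77, 3.44 and 6.67 CPM in A- livers. All Z+ fish were above all Z- fish, as was so for 3 of the 69 members and for 4.81% of all tested genes. The log2 fold change was 1.35 ± 0.43 (edgeR adjusted p = 0.0432), which was called in 13 of 24 fits with 1 fish left out. In A+ against A- it was 1.2 ± 0.43 (edgeR adjusted p = 0.074) and the ranges overlapped. The value of 29.6 CPM was that of A+ 2, the fish with the high ovary sum. Against A+ livers the log2 fold change of Z+ livers was -0.27, and without A+ 2 it was 0.63 (edgeR adjusted p = 0.10).

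Dnajb9a is a counterpart of human ERdj4, a J-domain partner of BiP inside the ER that the unfolded protein response induces and that helps to clear misfolded proteins. It was at 2.56, 6.76 and 7.65 CPM in Z+ livers and 1.92, 6.82 and 11.5 CPM in A+ livers, against 0.942, 1.45 and 4.33 CPM in Z- livers and 0.877, 1.56 and 2.01 CPM in A- livers. Z+ 1 and A+ 2 lay within the ranges of their siblings, and the other transgenic fish lay above them. Its log2 fold change was 1.71 ± 0.41 in the Z line (edgeR adjusted p = 0.0098) and 2.20 ± 0.42 in the A line (edgeR adjusted p = 0.0053), and both were called in 24 of 24 fits with 1 fish left out. Dnajb9a passed the filter only through the 12 transgenic fish, where it was high, with at most 87 counts in a sibling, and with no filter it was also called in both lines (edgeR adjusted p = 0.0326 and 0.0128). The paralogue dnajb9b, which had the highest level in class B, was at 0.09 and 0.64 in these comparisons and did not pass the test in either. Dnajc3a (P58IPK), another ER partner of BiP and the class C member with the highest level, was at -0.45 and 0.29 and was not called.

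**Figure D3:**
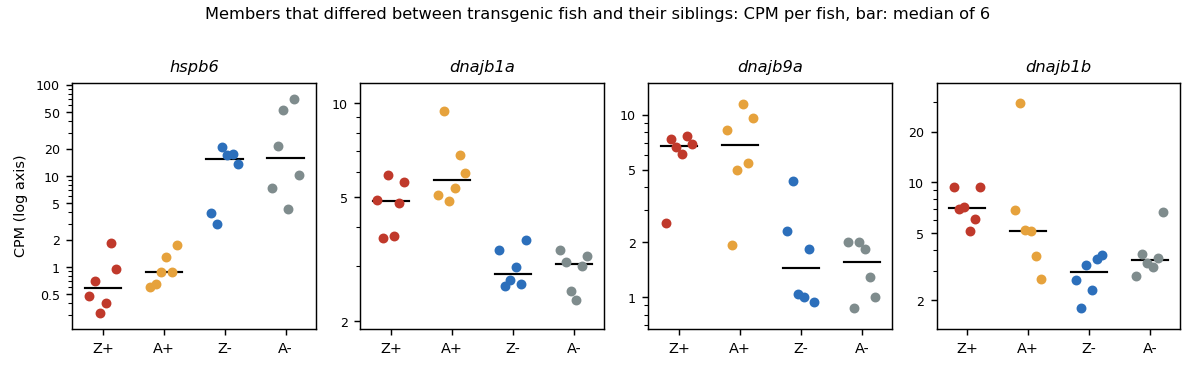
CPM per fish on a log axis for hspb6, dnajb1a, dnajb9a and dnajb1b, with a bar at the median of 6 fish of each genotype. The 12 transgenic fish lie below the 12 siblings for hspb6 and above them for dnajb1a, while dnajb9a overlaps through Z+ 1 and A+ 2 and dnajb1b through several Z+ and A+ fish.

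The remaining calls within a line were smaller or rested on few fish. Hsp90aa1.2, an inducible Hsp90, had a log2 fold change of 2.31 ± 0.68 in Z+ against Z- (edgeR adjusted p = 0.0307), with 0.845, 3.60 and 28.7 CPM in Z+ livers and 0.598, 1.49 and 3.06 CPM in Z- livers. Z+ 6 held the value of 28.7 CPM, and without it the log2 fold change was 1.17 (edgeR adjusted p = 0.19). In A+ livers it was at 0.624, 2.91 and 8.06 CPM, against 0.745, 0.986 and 2.93 CPM in A- livers (1.38 ± 0.67, edgeR adjusted p = 0.19). Hspa4a and dnajc5ga, lower in Z+ than in A+, were also lower than in Z- (-0.80 and -0.70, edgeR adjusted p = 0.0446 and 0.0321), which shares the Z+ fish. Against Z- they were called in 9 and 17 of 24 fits with 1 fish left out. Dnajc21, whose yeast counterpart acts in maturation of the large ribosomal subunit, was at 6.56, 16.6 and 44.2 CPM in Z+ and 21.6, 41.7 and 61.7 CPM in Z- livers (-1.11 ± 0.37, edgeR adjusted p = 0.0499), and it was called in 5 of 24 fits with 1 fish left out. Bag1 couples Hsp70 to the proteasome. It was at 4.78, 6.79 and 7.27 CPM in A+ livers and 7.35, 8.37 and 9.38 CPM in A- livers. All A+ fish were below all A- fish, as was so for 2.01% of all tested genes. The log2 fold change was -0.38 ± 0.12 (edgeR adjusted p = 0.0444, called in 8 of 24 such fits).

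Without the 4 fish that stood apart, 8 members were higher and 18 lower in Z+ against Z-, 37.7% of the members beside 27.3% of all tested genes (14.8% higher and 12.5% lower). In A+ against A- there were 2 higher and 7 lower, 13% beside 12.1% (5.5% higher and 6.61% lower). The 8 and 4 calls made with 24 fish were all among them.

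When Z+ livers were set against the mean of Z- and A- livers, 10 of 69 members (14.5%) were called, beside 16.8% of all tested genes (9.16% higher and 7.66% lower). The 4 higher members were again dnajb1a (0.69), dnajb1b (1.14), dnajb9a (1.87) and hsp90aa1.2 (2.42), and the 6 lower ones were hspb6 (-4.61), hspa4a (-0.73), dnajc5ga (-0.63), bag2 (-0.82), dnajc5ab (-0.50) and dnajb12a (-0.42). The Z+ fish are those of the comparisons above, so these are not further evidence for the members they share. Bag2, a Bag protein that restrains the ubiquitin ligase Chip, was at 0.838, 1.23 and 2.71 CPM in Z+ livers, against 2.22, 2.63 and 2.99 CPM in Z- livers and 1.67, 2.43 and 3.06 CPM in A- livers (-0.82 ± 0.27, edgeR adjusted p = 0.0394). No Z+ fish was over 100 counts of bag2, which passed the filter through 7 siblings and 1 A+ fish, and with no filter it was not called (-0.90, edgeR adjusted p = 0.0531). Dnajb12a, an ER membrane relative of dnajb14, and dnajc5ab, a cysteine string protein, had edgeR adjusted p-values of 0.0385 and 0.0313. Without the 4 fish, 9 members were higher and 21 lower, 43.5% beside 35% of all tested genes (19.3% higher and 15.7% lower).

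No member was called by edgeR between the siblings of the 2 families, Z- and A-, beside 1.17% of all tested genes (0.449% higher and 0.72% lower). An unadjusted p under 0.05 was found there for 1 of 69 (edgeR). DESeq2 called 0 members, beside 145 higher and 515 lower over all genes. Without the 4 fish, 0 members were called there by edgeR, beside 1.64% of all tested genes (0.804% higher and 0.839% lower). The interaction is the log2 fold change of Z+ against Z- minus that of A+ against A-. No member was called for it by edgeR at an adjusted p under 0.05, beside 0.525% of all tested genes (0.449% higher and 0.0763% lower). Of the 69 members, 21 had an unadjusted p under 0.05 for it (edgeR). The share of all tested genes at that unadjusted level is not given here, so the 21 have no background to be set beside. DESeq2 called 1 member higher and 3 lower there, beside 552 higher and 391 lower over all genes. The smallest edgeR adjusted p-values were those of dnajb14 (1.02 ± 0.30, 0.082) and dnajc5ga (-0.95 ± 0.29, 0.090). Without the 4 fish, hsf2 was called higher (1.74, edgeR adjusted p = 0.0117) and hspe1 (-1.02, edgeR adjusted p = 0.0494), dnajc5ga (-1.07, edgeR adjusted p = 0.0433) and hspa9 (-0.77, edgeR adjusted p = 0.0433) lower, 5.8% of the 69 beside 3.15% of all tested genes (2.02% higher and 1.13% lower).

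Members known to respond to heat through Hsf1 were then read together. Of 18 on this list, 12 were tested. The list is a mixed one. It holds genes that are low without heat, such as hsp70.3 and hsp90aa1.2, and also hspa8, hsp90ab1, hspd1 and hspe1, which heat raises further but which are made at a high level throughout. In Z+ against A+ livers 2 of 12 rose (hspb1 and bag3), 1 fell (stip1) and 9 did not pass the test, 25% beside 11.8% of all tested genes, with a median log2 fold change of -0.02. In Z+ against Z- livers 3 rose (dnajb1a, dnajb1b and hsp90aa1.2) and none fell (edgeR; 4 of 12 had an unadjusted p under 0.05), 25% beside 12.2%, and the median was 0.26. Of those 3, hsp90aa1.2 passed the filter through the transgenic fish, where it was high. Without a filter on low counts, and with library totals alone, each of the 3 lost its call in Z+ against Z-. Over all genes, higher calls there were 601 and 222, beside 826 in the main fit. In A+ against A- livers 1 rose (dnajb1a), 8.33% beside 10.1%, and the median was 0.35. In the set of 20 fish, 3 rose (hspb1, bag3 and dnajb1b) and 2 fell (stip1 and hspe1) in Z+ against A+, 41.7% beside 22.2% of all tested genes. The same 2 then also fell in Z+ against Z- (stip1 -0.73 and hspe1 -0.54, edgeR adjusted p = 0.00916 and 0.0453) beside the 3 that rose, 41.7% beside 27.3%, and in A+ against A- the count stayed at 1. The inducible Hsp70 transcripts stayed at or under 3.28 CPM in every liver but Z+ 6. Hsp70.3 was at 0.188, 1.55 and 14.1 CPM in Z+ livers and 0.119, 1.42 and 3.28 CPM in A+ livers, against 0.697, 1.22 and 1.86 CPM in Z- livers and 0.432, 1.35 and 1.73 CPM in A- livers, and it was not called in any comparison.

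A single liver differed from the rest in these genes. Z+ 6 had the highest value of 24 fish for hsp70.1 (6.72 CPM), hsp70.2 (16.1 CPM), hsp70.3 (14.1 CPM), hsp70l (6.64 CPM) and hsp90aa1.2 (28.7 CPM). In the other Z+ livers hsp70.2 was at 0.0704 to 1.63 CPM, and in sibling livers it did not exceed 0.77 CPM. The intestine marker sum of Z+ 6 (3155 CPM) was exceeded only by that of A- 6 (5035 CPM), where hsp70.2 was at 0.77 CPM. In Z+ 3 the intestine sum was 3003 CPM and hsp70.2 was at 1.63 CPM. Whether the values of Z+ 6 followed cells of other tissues was not tested. Hsp70.1, hsp70.2 and hsp70.3 lie next to each other in RefSeq, as do hsp90aa1.1 and hsp90aa1.2, and are near copies from which reads could be shared. How reads that match several copies were counted is not given in the sources used here, and the split between copies is uncertain. Hsp90aa1.1, which zebrafish use in skeletal muscle, was at 6.84 CPM in A- 6, the fish with the high muscle sum, and at no more than 0.591 CPM in any other fish. Hspb1 was also highest in A- 6 (12.4 CPM), and next highest in Z+ 6 (8.90 CPM), where the muscle sum was 2.6 CPM.

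Hspa8 and hsp90ab1, the Hsp70 and Hsp90 with the highest levels without heat, were not called in any comparison. Hsp90ab1 was at 2103, 2615 and 3266 CPM in Z+ livers and 1791, 2136 and 3060 CPM in A+ livers, against 1825, 2264 and 3180 CPM in Z- livers and 1313, 1958 and 2605 CPM in A- livers. Its log2 fold changes were 0.22 ± 0.20 between Z+ and A+, 0.16 ± 0.20 between Z+ and Z- and 0.21 ± 0.20 between A+ and A-. The mitochondrial chaperonin subunits hspd1 and hspe1, which are neighbouring genes, had log2 fold changes of -0.40 ± 0.30 and -0.56 ± 0.24 between Z+ and A+ (edgeR adjusted p = 0.40 and 0.13). Hspd1 was at 138, 223 and 456 CPM in Z+ livers and 238, 329 and 412 CPM in A+ livers. Its highest Z+ value was that of Z+ 5, which also had the highest Z+ value of hspe1.

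**Figure D4:**
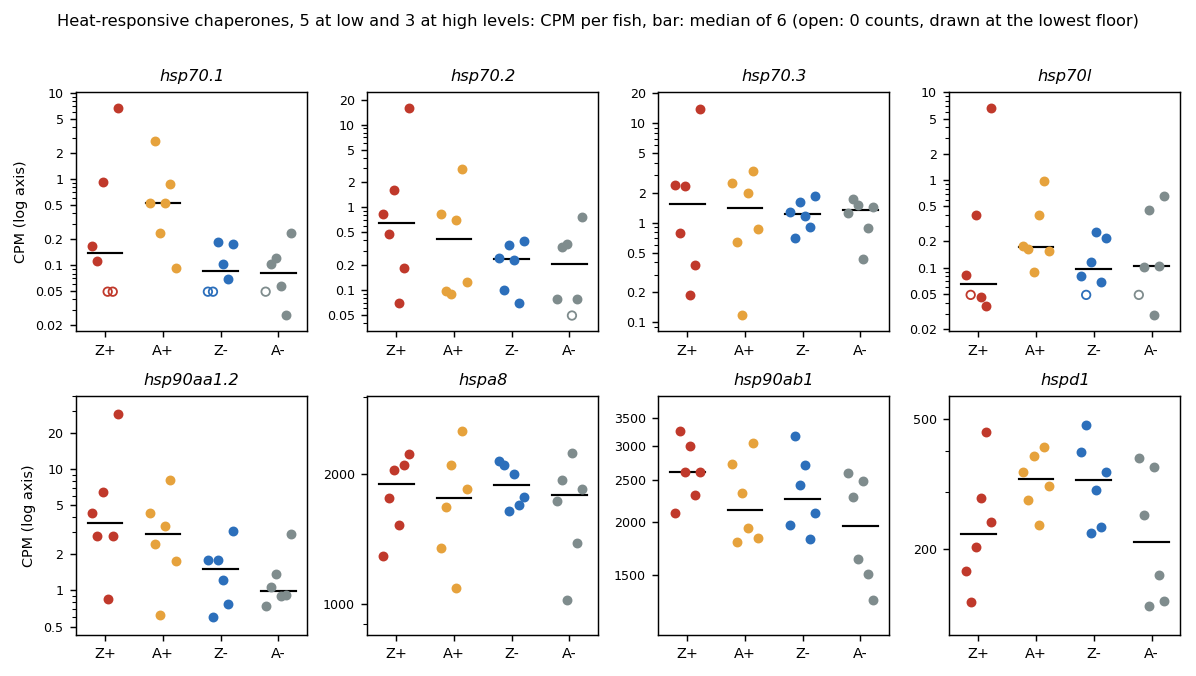
CPM per fish on a log axis for 8 genes of the heat-responsive list, 5 at low levels (hsp70.1, hsp70.2, hsp70.3, hsp70l and hsp90aa1.2) and 3 at high levels in every fish (hspa8, hsp90ab1 and hspd1), with a bar at the median of 6 and open circles for 0 counts, drawn at the lowest floor. The 5 low genes are highest in 1 Z+ fish, at 6.64 to 28.7 CPM, and the 3 high genes overlap in all 4 genotypes.

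Further groups of related genes outside the name rule were counted in the same fit. Of 17 tested co-chaperones of Hsp90, 1 rose and 1 fell between Z+ and A+ livers (11.8%, the background share). Without the 4 fish the count was the same, 11.8% beside 22.2% of all tested genes. Fkbp5, an immunophilin induced by glucocorticoids that tunes steroid receptors on Hsp90, was at 327, 556 and 762 CPM in Z+ livers and 82.4, 200 and 531 CPM in A+ livers (1.15 ± 0.33, edgeR adjusted p = 0.0301). Its sibling medians lay between these, at 439 CPM in Z- livers and 414 CPM in A- livers. Ptges3b, a p23 protein that stabilises the closed form of Hsp90, was at 17.4, 32.3 and 54.6 CPM in Z+ livers and 49.8, 68.2 and 80.6 CPM in A+ livers (-0.99 ± 0.22, edgeR adjusted p = 0.0083). Of 14 tested subunits of the cytosolic chaperonin TRiC and of prefoldin, cct2 rose between Z+ and A+ (0.67 ± 0.21, edgeR adjusted p = 0.0435) and 13 did not pass the test, 7.14% beside 11.8% of all tested genes. In the 20 fish 1 rose and 1 fell, 14.3% beside 22.2%. In Z+ against Z- none of the 14 was called by edgeR (2 had an unadjusted p under 0.05), with all 14 estimates below zero. Without the 4 fish 2 of them fell, 14.3% beside 27.3% of all tested genes. Of 10 other tested genes known under human HSF1, the polyubiquitin gene ubc fell between Z+ and A+ (-1.38 ± 0.37, edgeR adjusted p = 0.0230), with 41.9, 61.6 and 99.3 CPM in Z+ livers and 79.6, 111 and 514 CPM in A+ livers. That was 1 of 10, 10% beside 11.8% of all tested genes, and without the 4 fish 5 of the 10 fell, 50% beside 22.2%. In Z+ against Z- livers 3 of the 10 fell, 30% beside 12.2%. These were the polyubiquitin gene ubb (-1.47), cirbpa (-0.58) and the autophagy receptor gene sqstm1 (-1.12). Cirbpa, like cirbpb on the same list, is by name a cold-inducible gene. The list was not sorted by the direction in which heat moves a gene. Cirbpa and cirbpb were also among the 5 lower between Z+ and A+ without the 4 fish. In A+ against A- livers p4ha1b rose (1.88) and hmox1a (-4.22) and sqstm1 (-1.10) fell, 30% beside 10.1%. Against the mean of both sibling groups hmox1a (-3.26), cirbpa (-0.55) and sqstm1 (-0.95) fell in Z+ livers, 30% beside 16.8%, with the Z+ fish shared. Hmox1a, the haem oxygenase gene, also fell in Z- against A- livers (-4.39, edgeR adjusted p = 0.0048), the 1 of 10 called there. Its median was 3.35 CPM in Z+, 9.70 CPM in A+ and 5.81 CPM in Z- livers, against 133 CPM in A- livers (8.56 to 407 CPM). It was not called in Z+ against Z-. In the 20 fish 3 of the 10 were lower in Z+ against Z-, 30% beside 27.3% of all tested genes. In A+ against A- 1 was higher and 1 lower, 20% beside 12.1%. Against the mean of both sibling groups 6 were lower, 60% beside 35%, and in Z- against A- 1 was lower, 10% beside 1.64%.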

How the data were processed

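The authors sequenced polyA RNA of 24 livers, used STAR (through RNAsik) for alignment to GRCz11 plus the transgene, counted reads with featureCounts and merged features into 28210 genes, per the paper and the labels. The deposited values are raw counts without normalization. Tool versions are not used here, and the counting strand is not given in the sources used here. All 24 fish were kept. Fish that the study set aside as outliers could not be matched to labels, and sequencing run and sex are not in them.

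The counts were analysed with edgeR 4.0.16 (R 4.3.3, limma 3.58.1). Genes that exceeded 100 counts in 3 or more fish were scaled by TMM and fitted in 1 quasi-likelihood model of 4 genotype means, with Benjamini-Hochberg adjustment at 0.05 over 11801 genes in each of 6 comparisons. Standard errors follow from the fold change and its F statistic. The fit was tested on simulated data. Alternatives were DESeq2 1.42.0, its size factors, library totals alone, no filter, the replicate number as a block, a vitellogenin covariate, only the groups compared, each fish left out, and 4 fish left out together (added after seeing the data). Named members were those called in a comparison, those known to be induced by heat and the highest of each role, plus up to 3 genes of each related list by adjusted p in Z+ against A+. Members and lists were chosen with earlier results of these data known. Of the 69 members, 67 matched a RefSeq symbol (GRCz12tu), used for neighbours only.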

Additional observations from a re-analysis of the deposited data

Results flagged for a closer look

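In all, 4 values lay far from the other 5 fish of their genotype. The test covered 24 named members in 4 genotypes, 96 groups in all, where chance alone gives about 4.8 such values. Hsf2 was at 11.8 CPM in Z+ 5, with the next Z+ fish at 22.6 CPM. Dnajb9a was at 2.56 CPM in Z+ 1, with the next at 6.06 CPM. Hspe1 was at 118 CPM in Z+ 5, with the next at 81.7 CPM. Dnajb1b was at 6.67 CPM in A- 6, with the next A- fish at 3.74 CPM.

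Of the 26 members under the filter, which the comparisons do not use, 15 had their highest value in a transgenic fish. Of these 15, 7 had more than 100 counts in that fish. Transgenic fish and siblings were equal in number, and whether 15 of 26 exceeds chance was not tested. In Z+ 6, hsp70.1 was at 6.72 CPM, hsp70.2 at 16.1 CPM and hsp70l at 6.64 CPM, where the highest sibling values were 0.235, 0.77 and 0.663 CPM. In A+ 2, the fish with the high ovary marker sum, dnajc6 was at 2.84 CPM, hsf2bp at 3.85 CPM, hspbap1 at 8.55 CPM and dnajc30b at 5.64 CPM, where the highest sibling values were 0.929, 0.107, 0.911 and 1.98 CPM. The flag was set for transgenic fish only, and the reverse also occurred. Hspb9 (453 counts), hspb11 (484 counts) and hsp90aa1.1 (320 counts) were highest in A- 6, the sibling with the high muscle marker sum.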

How the results depend on the processing

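Numbers are members higher and lower, with 4 and 4 in Z+ against A+, 4 and 4 in Z+ against Z-, 4 and 6 in Z+ against both sibling groups, 2 and 2 in A+ against A-, and 0 and 0 in Z- against A- and for the interaction. In Z+ against A+ there were 0 and 7 with library totals alone, 0 and 0 with only the groups compared, 2 lower without a filter and 14 lower with the vitellogenin covariate. Over all genes, 1547 were lower without a filter and 1202 with the covariate, beside 699 in the main fit. In Z+ against Z-, DESeq2 called 11 lower, library totals 1 higher, no filter 1 and 1, and the covariate 10 lower. Over all genes these were 927 lower, 222 higher, 601 and 563, and 901 lower, beside 826 and 610 in the main fit. Against both sibling groups, totals gave 2 higher, no filter 2 lower and the covariate 12 lower. Over all genes these were 429 higher, 889 lower and 1199 lower, beside 1081 and 904 in the main fit. In A+ against A-, the covariate gave 5 higher, and DESeq2's size factors, totals and only the groups compared 1 lower each. Over all genes these were 953 higher and 525, 191 and 114 lower, beside 622 and 574 in the main fit. For the interaction DESeq2 gave 1 and 3 and the covariate 7 lower. Over all genes DESeq2 gave 552 and 391 and the covariate 188 lower, beside 53 and 9 in the main fit. Without A+ 2, A- 6, Z+ 5 and Z- 2, chosen after seeing the data, the counts were 9 and 15, 8 and 18, 9 and 21, 2 and 7, 0 and 0, and 1 and 3 in the order above. Apart from these, the replicate block and single fish left out, both given below, each setting left its count within 1.5 times. The cause of these changes was not tested.

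Leaving out 1 fish at a time gave, in Z+ against A+, 0 (without Z+ 2) to 8 (without A+ 2) higher and 1 (without Z+ 1, Z+ 2 or Z+ 3) to 11 (without Z+ 5) lower. In Z+ against Z- it gave 2 to 5 higher and 1 to 15 (without Z+ 5) lower, and against both sibling groups 2 (without Z+ 6) to 7 (without A+ 2) higher and 1 to 12 (without Z+ 5) lower. In A+ against A- it gave 2 to 3 higher and 1 to 5 (without A+ 2) lower, for the interaction 0 to 1 higher and 0 to 2 lower, and in Z- against A- 0 to 0. Of these fits, the share over all genes is given only for Z+ against A+ without Z+ 2. It was 4.77% there, beside 11.8% in the main fit. The ranges above are therefore not a result about the members. Hspb6 and dnajb9a kept their calls within both lines, and dnajb1a in A+ against A-, in every setting run. Signs turned for hspa8 in Z+ against A+ (-0.152 with totals, -0.024 with the covariate, -0.03 without the 4 fish, and -0.057 to 0.178 with 1 fish left out) and for dnajb1b in Z+ against A+ (0.662 without the 4 fish, and -0.463 to 0.631 with 1 fish left out). With totals alone, calls over all genes were 222 higher and 267 lower in Z+ against Z- (826 and 610 with TMM), 429 and 630 against both sibling groups (1081 and 904), and 353 and 191 in A+ against A- (622 and 574).

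Fish numbers did not pair the samples, since 13 of 36 same-numbered pairs had a correlation over 0.1 (range -0.448 to 0.771) and a fish matched its own number best in 13 of 72 cases. With the replicate number as a block, 3 higher and 1 lower were called in Z+ against A+, 2 and 6 in Z+ against Z-, 4 and 7 against both sibling groups, 2 and 1 in A+ against A-, and 0 elsewhere. Over all genes the first 4 of these were 500 and 288, 696 and 564, 1043 and 833, and 189 and 379. Depth limits members such as hsp70.1, with 0 counts in several fish, to a floor of 0.0492 to 0.149 CPM.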
